A study of Rattus norvegicus with 12 samples.

Results

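Transcripts of red blood cells were counted in all 12 brain libraries of this rat series. The 9 genes described here are 2 alpha-globin rows (Hba1 and LOC287167), 4 beta-globin rows (Hbb, Hbb-b1, LOC689064 and LOC100134871), and the red-cell genes Slc4a1, Alas2 and Alox15. All 9 named rows were found among the 17337 rows of the deposited count table, and all 9 passed the filter on low counts. The members were chosen by their calls as higher after bile duct ligation than in sham rats, in earlier results of the same libraries. Their difference between ligated and sham rats is therefore what chose them, and it is given below as a description with no p-value.

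RNA was sequenced from the brains of male Sprague-Dawley rats at postnatal day 60, in 4 groups of 3 libraries. Sham rats were the controls, and bile duct ligation (BDL), an operation that blocks bile flow and leads to cirrhosis and hepatic encephalopathy, had lasted 4 weeks in the 9 rats of the other groups. Of these, 1 group received no vector (BDL), and the others received 20 µl of an adeno-associated virus (AAV) in the cisterna magna, a fluid space below the cerebellum, coding for green fluorescent protein (AAV-GFP) or for the lymphatic growth factor VEGFC (AAV-VEGFC). Both vector groups thus carry the ligation, and no sham rat received a vector. The sources used here give neither the AAV serotype nor its promoter, nor the time of injection, nor the species of the VEGFC sequence. They also do not say whether blood was rinsed from the vessels before the brains were frozen. The design text gives 3 rats per group but ties no library to an animal, so p-values measure the spread between these libraries.

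The 9 genes belong to the last steps of red-cell formation. Erythroblasts in the marrow build haemoglobin from alpha-globin and beta-globin chains and haem, and Alas2 encodes the erythroid enzyme that starts haem synthesis. Young red cells that have just lost their nucleus, the reticulocytes, still carry these mRNAs into the blood and lose them as they mature. Slc4a1 encodes band 3, which exchanges chloride for bicarbonate across the red-cell membrane, and Alox15 encodes a lipoxygenase known from maturing reticulocytes and some macrophages. In bulk tissue, more cells of a type and more RNA per cell cannot be told apart.

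Library totals ran from 40296297 to 51669067 counts, and the 9 rows together made up between 0.0147% and 0.171% of a library's counts. Values below are CPM (counts scaled to library size with TMM factors), and log2 fold changes ± SE are from 1 edgeR quasi-likelihood fit of all 12 libraries with 12850 genes tested. A gene was called at a Benjamini-Hochberg adjusted p under 0.05. CPM is not per gene length, so levels are compared between libraries and not between genes. The forebrain transcript Slc17a7 lay between 1249 and 2029 CPM and the dopamine enzyme Th between 0.652 and 1.70 CPM, although the design text names the tissue as middle brain. Sham 2, AAV-GFP 1 and AAV-VEGFC 1 stood apart from their groups in earlier results of these data, among them sham 2 with 245 CPM of the choroid plexus gene Ttr. Counts and calls that change when all 3 are left out are given for the members and for part of the lists and named list genes.

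Promoters are shown for members whose mRNAs moved together, since globin and haem genes share short control motifs. RefSeq's table of rat promoters (build GRCr8) matched 6 of the 9 members. There LOC287167 is named Hba-a3, LOC689064 is Hbb-bs and LOC100134871 is Hbbl1, and the name Hba1 is a synonym of both Hba-a1 and Hba-a2 and was left unmatched. The sequences are the 140 bases before the start site, 5′ to 3′ on the gene's strand, with capitals for 4 motifs on either strand. These are CACCC (bound by Krüppel-like factors), the CCAAT box, the motif GATAA (bound by GATA factors) and the TATA-box form ATAAA.
Hbb (chr1:167663722-167663861, minus strand): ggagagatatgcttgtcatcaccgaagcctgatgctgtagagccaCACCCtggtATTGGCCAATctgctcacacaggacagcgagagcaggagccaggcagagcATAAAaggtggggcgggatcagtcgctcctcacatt
Hbb-b1 (chr1:167643521-167643660, minus strand): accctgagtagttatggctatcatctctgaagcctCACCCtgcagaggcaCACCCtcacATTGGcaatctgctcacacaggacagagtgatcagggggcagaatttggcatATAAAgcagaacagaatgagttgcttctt
LOC100134871 (chr1:167650236-167650375, minus strand): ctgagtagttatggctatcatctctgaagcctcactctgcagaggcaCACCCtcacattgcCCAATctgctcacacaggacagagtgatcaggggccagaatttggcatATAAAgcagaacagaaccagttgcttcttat
LOC287167 (chr10:15816944-15817083, minus strand): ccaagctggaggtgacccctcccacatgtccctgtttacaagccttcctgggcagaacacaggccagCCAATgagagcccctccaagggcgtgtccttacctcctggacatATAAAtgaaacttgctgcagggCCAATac
Alas2 (chrX:22895310-22895449, plus strand): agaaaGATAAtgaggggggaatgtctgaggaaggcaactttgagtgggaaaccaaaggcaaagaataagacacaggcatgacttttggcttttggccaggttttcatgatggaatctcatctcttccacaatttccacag

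CCAAT lay in 5 of the 6 matched promoters and in 22.3% of 33469 RefSeq promoter windows of the same length. ATAAA lay in 5 of 6 against 24.4%, CACCC in 4 of 6 against 33.3%, and GATAA in 1 of 6, that of Alas2, against 13.2%. All 4 beta-globin promoters held CACCC, the CCAAT box and the ATAAA form. Aligned pairwise, the window of Hbb-b1 was 92.3% identical to that of LOC100134871 and 95.04% identical to that of LOC689064 (not printed), while Hbb shared 68.0% to 70.3% with these 3. A match is a stretch of letters and not evidence of binding. These windows lie before the start site, and the transcripts themselves were not aligned. Copies of 1 globin chain may share reads, which was not tested, so the split of counts between their rows is uncertain.

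Slc4a1 had the widest gap between sham and ligated rats among the members. The sham libraries held 0.137, 0.448 and 0.263 CPM (libraries 1, 2 and 3), from 7, 22 and 11 counts. The BDL libraries held 7.89, 9.99 and 5.79 CPM. Each BDL library lay above each sham library, and the fitted log2 difference was 4.79 ± 0.35, or 27.7-fold. With a vector, band 3 mRNA stood at 8.76, 8.80 and 8.62 CPM in the AAV-GFP libraries and at 6.33, 9.68 and 8.77 CPM in the AAV-VEGFC libraries, levels inside the BDL range.

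Alas2, the erythroid haem enzyme, was 1.15, 1.79 and 1.39 CPM in sham and 9.58, 12.4 and 5.38 CPM in BDL libraries (log2 difference 2.66 ± 0.27). AAV-GFP libraries held 12.5, 13.4 and 14.1 CPM and AAV-VEGFC libraries 15.0, 15.2 and 17.3 CPM. Unlike for Slc4a1, each vector library lay above each BDL library, and the AAV-VEGFC libraries lay above the AAV-GFP libraries. The tests of those steps are given with the vector comparisons.

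Alox15, the reticulocyte lipoxygenase, was 2.42, 2.45 and 1.77 CPM in sham and 22.3, 27.6 and 12.2 CPM in BDL libraries (log2 difference 3.22 ± 0.29). AAV-GFP libraries held 26.8, 24.3 and 26.6 CPM and AAV-VEGFC libraries 22.5, 31.4 and 20.2 CPM. The 3 ligated groups overlapped, and all 9 of their libraries lay above the sham libraries.

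Alpha-globin was measured mainly by Hba1, which took between 96.8% and 98.0% of the alpha-globin counts in every library. Hba1 was 53.2, 73.2 and 57.6 CPM in sham, and 279.6, 381 and 207 CPM in BDL libraries (log2 difference 2.24 ± 0.19). The AAV-GFP libraries held 362, 402 and 381 CPM. The AAV-VEGFC libraries held 427, 426 and 426 CPM, the narrowest spread, relative to its mean, of any member in any group. The minor alpha row LOC287167 followed with 1.30 ± 0.321 CPM in sham, 8.0 ± 2.54 in BDL, 9.42 ± 0.418 in AAV-GFP and 11.6 ± 2.27 CPM in AAV-VEGFC libraries (mean ± SD, n = 3 each).

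Beta-globin was spread over more rows. Hbb was 53.4, 71.7 and 60.2 CPM in sham, and 291, 399.6 and 186 CPM in BDL libraries (log2 difference 2.24 ± 0.29). It was 369.8, 414 and 431 CPM in AAV-GFP libraries and 767, 425 and 426 CPM in AAV-VEGFC libraries. AAV-VEGFC 1 stood far above the other libraries of its group in this row. Hbb-b1 was 8.89, 10.97 and 9.58 CPM in sham, 48.6, 59.7 and 28.7 in BDL, 62.4, 67.4 and 70.6 CPM in AAV-GFP and 104, 76.9 and 68.8 CPM in AAV-VEGFC libraries. LOC100134871 reached 352 CPM and LOC689064 33.1 CPM in AAV-VEGFC 1, against at most 192 and 21.1 CPM in the other libraries of that group. All 4 beta-globin rows were thus highest in AAV-VEGFC 1, while Slc4a1 was at its lowest level of the AAV-VEGFC group there.

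**Figure D1:**
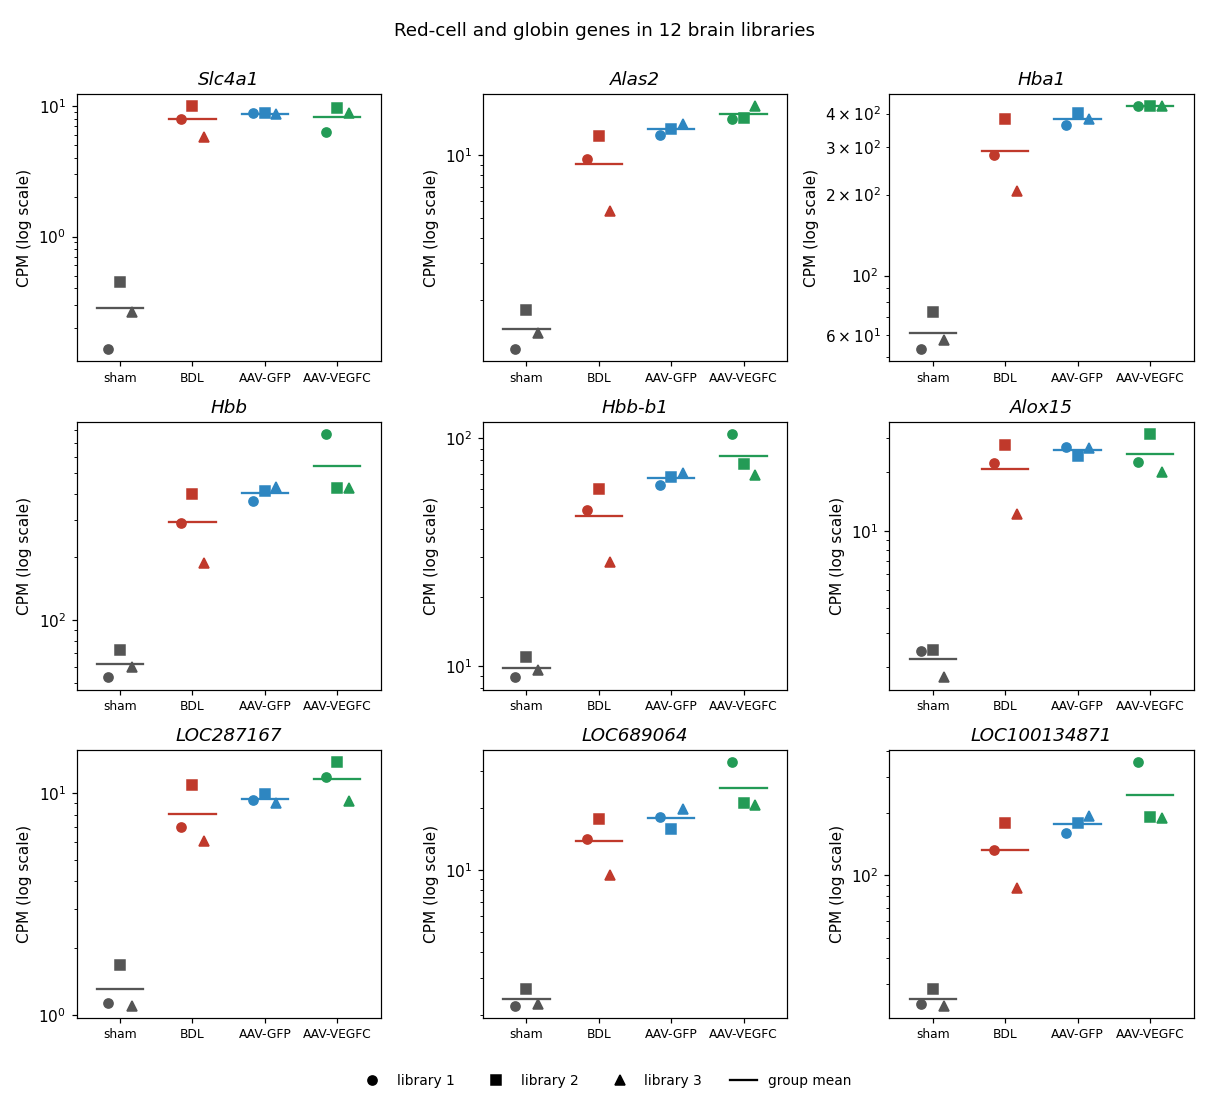
CPM after TMM scaling (log axis) of the 9 red-cell and globin genes in each of the 12 libraries, by group; the marker shape gives the library number and the line the group mean of 3 libraries. In every panel the sham libraries lie below all others, BDL 3 is the lowest of the BDL libraries and BDL 2 the highest.

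Across the 9 members the log2 difference of BDL from sham ran from 2.22 to 4.79 with a median of 2.53, beside a median of 0.01 over all 12850 genes. All 9 were called higher, as 0.0934% of all genes were, and all 9 had groups that did not overlap, as did 12.6% of all genes in the higher direction. Because earlier calls of this contrast chose the members, these counts support nothing. What the choice did not fix is the order of libraries within a group. Sham 2 was the highest sham library for 9 of 9 members, BDL 2 the highest and BDL 3 the lowest BDL library for 9 of 9. In the vector groups the order was mixed: AAV-GFP 3 was highest for 5 members, AAV-VEGFC 1 was highest for 5 and lowest for 2. Over the 36 pairs of members, r of log2 CPM over 12 libraries was 0.935 to 0.999. With the group means removed it was 0.20 to 0.988. All these values share the libraries and their scaling, and rows of 1 globin chain may share reads.

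The vector groups were then set against sham, which shows whether the red-cell signal was present in ligated rats other than those that chose the genes. All 9 members rose in AAV-GFP libraries (log2 fold change 2.64 to 4.94, median 2.85) and all 9 rose in AAV-VEGFC libraries (2.80 to 4.86, median 3.28). For Slc4a1 the change was 4.94 ± 0.35 with AAV-GFP (edgeR adjusted p = 2.48e-05) and 4.86 ± 0.35 with AAV-VEGFC (edgeR adjusted p = 1.7e-05). Over the members, edgeR adjusted p ran up to 0.000229 for AAV-GFP and up to 9.57e-05 for AAV-VEGFC. Higher calls made up 3.95% of all genes with AAV-GFP and 7.98% with AAV-VEGFC, and the median over all genes was 0.01 in both. No vector library overlapped with a sham library in any member, which held in the higher direction for 23.7% and 18.9% of all genes. The sham libraries are the same as those that took part in choosing the genes, so these tests are not independent of the choice.

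Whether a vector altered the red-cell signal of ligated rats was asked against the BDL group, whose libraries also took part in the choice. With AAV-GFP, 0 of 9 members were called by edgeR, against 0.988% of all genes called higher. The log2 fold changes ran from 0.15 to 0.55, with 2 members at an unadjusted p under 0.05, and DESeq2 called 0 and limma voom 6. The tools also differed for other genes. Of 149 tested genes in the lists read below, edgeR called 11 here, DESeq2 18 and limma voom 50. The nearest to the threshold was Hbb-b1 (0.55 ± 0.23, 95% interval 0.05 to 1.04, edgeR adjusted p = 0.195), followed by Alas2 (0.55 ± 0.24, interval 0.01 to 1.09, edgeR adjusted p = 0.232). These 2 were also the members whose groups did not overlap, as for 18.2% of all genes.

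With AAV-VEGFC, 2 of 9 members rose over BDL, both beta-globin rows, where 2.91% of all genes were called higher. Hbb-b1 rose by 0.87 ± 0.23 (edgeR adjusted p = 0.0353) and LOC689064 by 0.86 ± 0.23 (edgeR adjusted p = 0.0373). Neither call held when AAV-VEGFC 1 was left out, nor without BDL 1, BDL 3, AAV-GFP 3 or any 1 of the 3 sham libraries, and without BDL 2 there were 6 calls. Without AAV-VEGFC 1, Hbb-b1 was at 0.67 (edgeR adjusted p 0.0653), LOC689064 at 0.61 (0.0690), Hbb at 0.54 (0.148) and LOC100134871 at 0.52 (0.136). Without sham 2, AAV-GFP 1 and AAV-VEGFC 1 together, 0 of 9 members were called. Alas2 (0.80 ± 0.25, edgeR adjusted p = 0.0617), Hbb (0.88 ± 0.28, edgeR adjusted p = 0.0646), LOC100134871 (0.88 ± 0.27, edgeR adjusted p = 0.0617) and Hba1 (0.56 ± 0.18, edgeR adjusted p = 0.0744) did not pass. Slc4a1 and Alox15 were the members with the smallest values, 0.07 ± 0.27 (95% interval -0.53 to 0.66) and 0.26 ± 0.25 (interval -0.30 to 0.81). In 6 members the groups did not overlap, as in 14.6% of all genes. With the rows of each chain summed, alpha-globin was 0.56 ± 0.18 (edgeR adjusted p = 0.0749) and beta-globin 0.88 ± 0.27 (edgeR adjusted p = 0.0592), and neither passed. AAV-VEGFC and AAV-GFP are set against the same 3 BDL libraries, of which BDL 3 was the lowest for every member.

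AAV-VEGFC against AAV-GFP asked what VEGFC added to the vector, and is the comparison that the choice of genes did not touch. No member was called by edgeR, DESeq2 or limma voom, and 0 had an unadjusted p under 0.05. The smallest p belonged to LOC689064 (log2 fold change 0.48 ± 0.23, 95% interval -0.02 to 0.98, edgeR adjusted p = 0.948). The globin rows averaged between 0.16 and 0.48 higher with AAV-VEGFC, and the values of the beta-globin rows rested on AAV-VEGFC 1. Without that library Hbb fell from 0.41 to 0.07, LOC100134871 from 0.46 to 0.10, Hbb-b1 from 0.32 to 0.13 and LOC689064 from 0.48 to 0.22, while Hba1 stayed at 0.16. Without sham 2, AAV-GFP 1 and AAV-VEGFC 1 these beta-globin values were 0.02, 0.04, 0.09 and 0.23, and Hba1 was at 0.13. For Hba1 the interval was -0.24 to 0.56, for Hbb -0.19 to 1.02 and for LOC100134871 -0.13 to 1.05. Slc4a1 (-0.08, interval -0.67 to 0.52) and Alox15 (-0.07, interval -0.63 to 0.49) lay near 0, and Alas2 was 0.25 higher (interval -0.29 to 0.78). In 3 members (Alas2, Hba1 and LOC689064) each AAV-VEGFC library lay above each AAV-GFP library, as in 3.29% of all genes. Calls made up 0.00778% of all genes here, in either direction, so few genes of any kind passed. A p that misses the threshold does not show that the groups were alike, and for Hbb and LOC100134871 the intervals reached above 1 on the log2 scale.

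**Figure D2:**
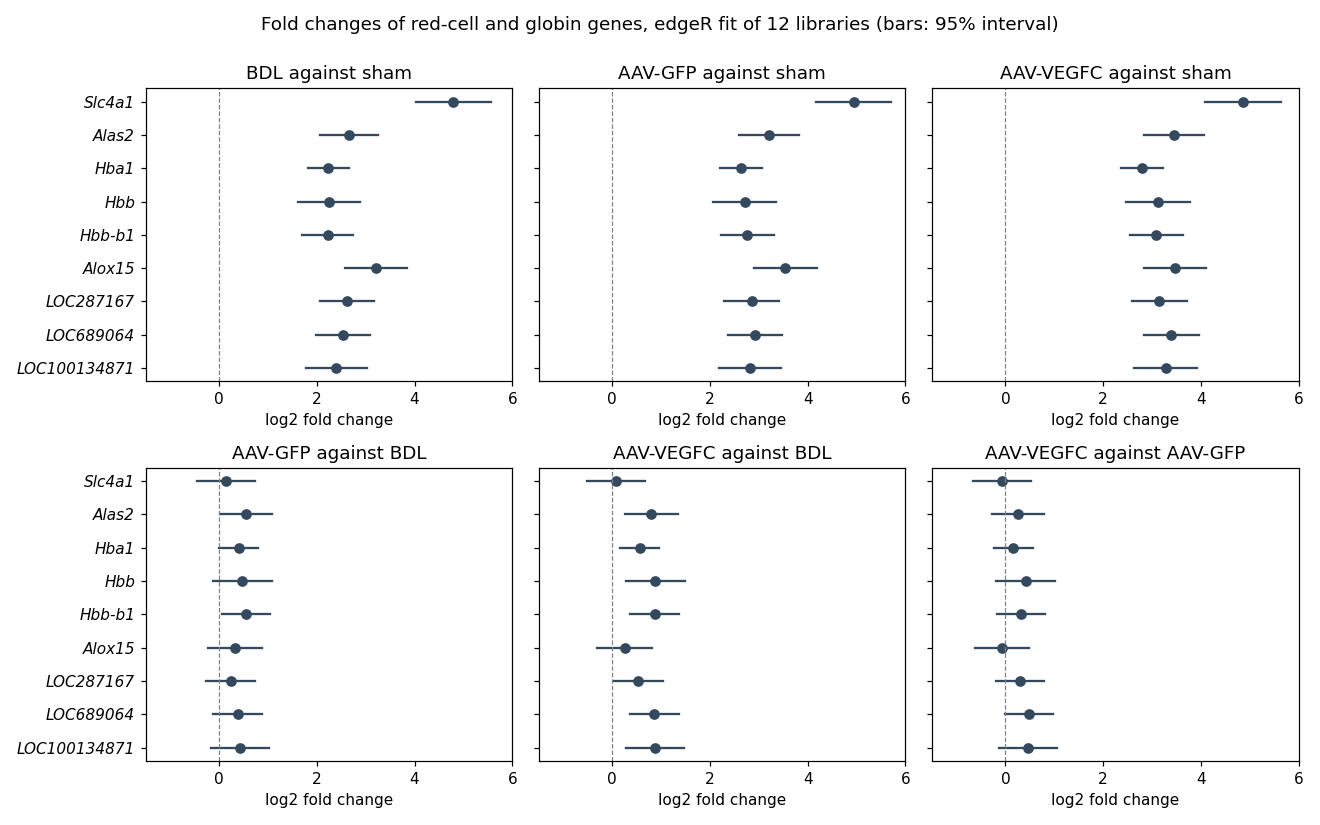
Log2 fold changes (points) with 95% intervals (bars) of the 9 genes in the 6 comparisons, from the edgeR fit of 12 libraries; the dashed line marks no difference. The upper panels, against sham, lie between 2.22 and 4.94, and the lower right panel, AAV-VEGFC against AAV-GFP, has every bar across 0.

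Ratios between members within a library do not depend on library size. Beta-globin counts per alpha-globin count stood at 1.63, 1.52 and 1.62 in sham, 1.70, 1.67 and 1.46 in BDL and 1.64, 1.64 and 1.84 in AAV-GFP libraries. In AAV-VEGFC libraries the ratio was 2.87, 1.63 and 1.62. The chain balance of AAV-VEGFC 1 thus lay outside the range of 1.46 to 1.84 that the other 11 libraries kept. Within the beta chain, Hbb made up between 59.4% and 63.1% of counts in the 12 libraries, with AAV-VEGFC 1 inside that range at 61.0%. LOC100134871 made up between 24.6% and 28.0%, and Hbb-b1 between 8.30% and 10.8%. AAV-VEGFC 1 had the highest share of LOC100134871 (28.0%) and the lowest of Hbb-b1, whose share was 9.10% or more in the other 11 libraries.

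Slc4a1 and globin differed in how far apart sham and ligated libraries lay. Per 1000 alpha-globin counts there were 2.52, 5.99 and 4.47 Slc4a1 counts in sham libraries. There were 27.5, 25.5 and 27.2 in BDL, 23.6, 21.4 and 22.1 in AAV-GFP and 14.4, 22.0 and 20.1 in AAV-VEGFC libraries. All 9 ligated libraries therefore held more band 3 mRNA per alpha-globin mRNA than any sham library. Alox15 counts per 1000 alpha-globin counts were 35.8 ± 7.72 in sham and 68.5 ± 10.2 in BDL libraries (SD, n = 3 each), again without overlap. Alas2 showed the smallest shift of the 3, from 22.9 ± 1.49 to 30.1 ± 4.26. Since the rule used both terms of each ratio in sham and BDL libraries, these differences are described only. Between AAV-VEGFC and AAV-GFP, 4 ratios were tested by an exact two-sided permutation test of 3 against 3 libraries, which cannot give a p below 0.1. Its p was 1 for beta per alpha-globin, 0.2 for Slc4a1, 0.4 for Alas2 and 0.3 for Alox15 in these exact tests (0.533 for the last 3 after Benjamini-Hochberg adjustment).

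**Figure D3:**
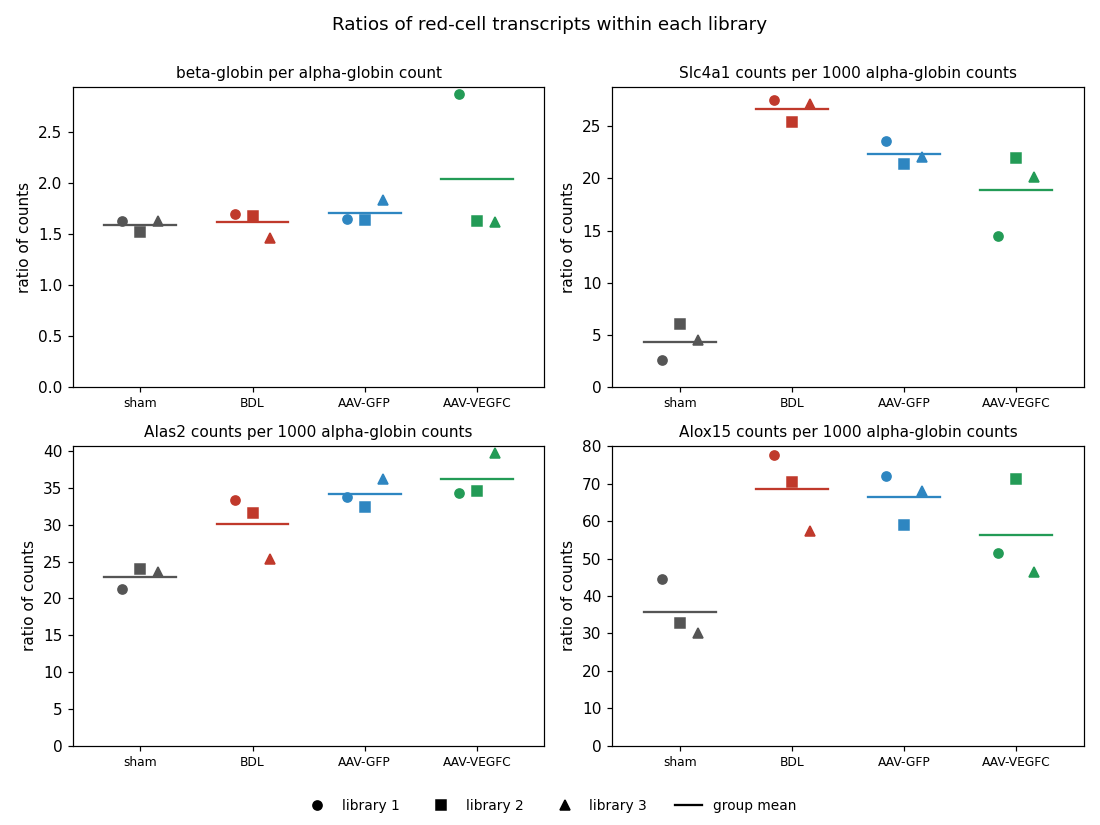
Ratios of counts within each of the 12 libraries, by group, with the axis from 0; markers are libraries 1, 2 and 3 and lines are group means. AAV-VEGFC 1 stands out at 2.87 beta-globin counts per alpha-globin count, and Slc4a1 per 1000 alpha-globin counts is below 6 in sham and above 14 in every ligated library.

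Other red-cell genes were read from lists of the membrane, of regulators and late maturation, of haem synthesis and of haem breakdown. Between BDL and sham, edgeR called 0 of their 53 tested genes, with 10 at an unadjusted p under 0.05, 2 called by DESeq2 and 4 by limma voom. Without sham 2, AAV-GFP 1 and AAV-VEGFC 1, edgeR called 2 of the 53. In the other comparisons that step moved the calls of these lists from 7 to 24 with AAV-GFP and from 12 to 17 with AAV-VEGFC over sham, from 4 to 22 and from 6 to 14 for these over BDL, and from 0 to 5 for AAV-VEGFC against AAV-GFP. In the same order, calls over all 12850 genes were 1578, 2394, 795, 1276 and 1 in the fit of all 12 libraries. Those calls also moved with the setting, so the list counts are not read as a result about red-cell genes. Many of these genes are also brain genes, such as Dmtn (305 CPM on average), a cytoskeletal protein, so their levels need not come from red cells. Genes with a tighter link to erythroid cells were near the limit of detection. Gata1, the master regulator of erythroid cells, had 0 counts in all 12 libraries, which allows at most 0.0744 CPM in the shallowest library. Gfi1b, Rhag, Trim58 and Car1 had at most 10 counts in any library. Klf1, a factor that activates adult beta-globin, lay between 0.713 and 1.74 CPM and was not called by edgeR. Each AAV-GFP library held more Klf1 than each BDL library, and the groups overlapped in the other comparisons.

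Of the membrane list, 14 of 16 genes found were tested. Slc2a1, the glucose transporter GLUT1 of red cells and of brain endothelium, rose in AAV-GFP (0.68 ± 0.12, edgeR adjusted p = 0.00557) and in AAV-VEGFC libraries (0.97 ± 0.13, edgeR adjusted p = 0.000622) over sham. In BDL libraries it was at 0.22 ± 0.12 over sham and was not called. Over BDL it rose with AAV-VEGFC (0.75 ± 0.13, edgeR adjusted p = 0.00353), while AAV-GFP (0.46 ± 0.12, edgeR adjusted p = 0.0521) did not pass. Xk (-0.50 ± 0.15, edgeR adjusted p = 0.0423), a blood-group membrane protein, fell in AAV-VEGFC libraries. The calls of Slc2a1 held in each of the 12 fits that left out 1 library. That of Xk was lost without sham 1, sham 2, sham 3, BDL 3, AAV-VEGFC 1 or AAV-VEGFC 3 (highest edgeR adjusted p 0.131) and without sham 2, AAV-GFP 1 and AAV-VEGFC 1 together (edgeR adjusted p 0.0815). The list's median log2 fold change over sham was -0.08 in BDL, -0.03 in AAV-GFP and -0.11 in AAV-VEGFC libraries, beside 0.01 over all genes. Rhd, a Rh blood-group gene, was at 0.0977, 0.530 and 0 CPM in sham and at 0.737, 1.06 and 0.864 CPM in BDL libraries. Its log2 fold change over sham was 2.38 ± 0.76 in AAV-VEGFC libraries (edgeR adjusted p = 0.0502), which did not pass.

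Of the regulators and late-maturation genes, 14 of 20 found were tested. Hemgn, the erythroid nuclear protein hemogen, was at 0.176, 0.102 and 0 CPM in sham and at 0.347, 0.765 and 0.603 CPM in BDL libraries. It rose over sham with AAV-GFP (2.85 ± 0.67, edgeR adjusted p = 0.0195) and with AAV-VEGFC (2.95 ± 0.67, edgeR adjusted p = 0.0137). The call with AAV-GFP was lost without sham 2 or AAV-GFP 2 (highest edgeR adjusted p 0.0646), and that with AAV-VEGFC held in all 12 fits. All 9 ligated libraries lay above the sham libraries, as for the members. Bpgm, which makes the bisphosphoglycerate that tunes oxygen release, followed another course. It averaged 0.07 ± 0.06 above sham in BDL libraries, and rose over BDL with AAV-GFP (0.23 ± 0.06, edgeR adjusted p = 0.0398) and with AAV-VEGFC (0.33 ± 0.06, edgeR adjusted p = 0.00519). The latter call held in all 12 fits, the former in 3 of 12, those without an AAV-VEGFC library (highest edgeR adjusted p 0.154). Tspan33, an erythroid tetraspanin, rose in AAV-GFP libraries alone of the groups against sham (0.40 ± 0.10, edgeR adjusted p = 0.0202), a difference from AAV-VEGFC of -0.25 ± 0.10 that did not pass (edgeR adjusted p = 0.948). Its call was lost without sham 1, sham 3, AAV-GFP 2 or AAV-GFP 3 (highest edgeR adjusted p 0.0844). Ahsp, the chaperone of alpha-globin, lay between 0.176 and 1.36 CPM and was not called by edgeR.

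The haem-synthesis list was tested in full, 15 of 15 genes. Alas1, the housekeeping counterpart of Alas2, lay between 51.4 and 72.2 CPM and was not called by edgeR in any comparison. Over sham, Alad (0.31 ± 0.09, edgeR adjusted p = 0.0359), Uros (0.53 ± 0.13, edgeR adjusted p = 0.0195) and Urod (0.37 ± 0.12, edgeR adjusted p = 0.0479), all enzymes of the middle steps, rose in AAV-VEGFC libraries. Each of these was highest in AAV-VEGFC 1. The call of Uros was lost without sham 1 or sham 3, that of Alad held in 4 of 12 fits (without AAV-GFP 1, AAV-GFP 2, AAV-VEGFC 2 or AAV-VEGFC 3) and that of Urod in 3 (without any 1 AAV-VEGFC library), with edgeR adjusted p up to 0.0798, 0.133 and 0.146. Ireb2, an iron-sensing RNA-binding protein, fell over sham in AAV-GFP (-0.42 ± 0.09, edgeR adjusted p = 0.0102) and AAV-VEGFC libraries (-0.46 ± 0.09, edgeR adjusted p = 0.00477). The former was lost without sham 3 (edgeR adjusted p 0.0583). In BDL libraries Ireb2 was at -0.05 ± 0.09 over sham, and it also fell over BDL. There it was at -0.37 ± 0.09 with AAV-GFP (edgeR adjusted p = 0.0269, held in 4 of 12 fits). With AAV-VEGFC it was at -0.42 ± 0.09 over BDL (edgeR adjusted p = 0.0116, held in 10 of 12). The values of this list over sham stand beside rises of 3.21 with AAV-GFP and 3.45 with AAV-VEGFC for Alas2.

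Of 10 tested genes of haemoglobin and haem clearance, Cd163, the macrophage receptor for haptoglobin-bound haemoglobin, rose over sham in AAV-GFP (1.32 ± 0.31, edgeR adjusted p = 0.0198) and AAV-VEGFC libraries (1.08 ± 0.31, edgeR adjusted p = 0.0366). Its calls held in 8 and 5 of 12 fits, and both were lost without sham 2, sham 3, AAV-GFP 2 or AAV-GFP 3, the second also without BDL 2, BDL 3 or AAV-VEGFC 2 (edgeR adjusted p up to 0.0860 and 0.124). The second was also lost without sham 2, AAV-GFP 1 and AAV-VEGFC 1 together (edgeR adjusted p 0.0919). It was at 0.938, 0.510 and 0.574 CPM in sham and at 1.26, 2.13 and 2.13 CPM in BDL libraries. Lrp1, a receptor for many ligands including haemopexin-bound haem, fell in both vector groups over sham (-0.54 ± 0.12, edgeR adjusted p = 0.0138, and -0.67 ± 0.12, edgeR adjusted p = 0.00366). The first was lost without sham 1, sham 3, AAV-GFP 2 or AAV-GFP 3 (edgeR adjusted p up to 0.0668). In BDL libraries Lrp1 was at -0.00 ± 0.12 over sham, and it also fell over BDL. There it was at -0.54 ± 0.12 with AAV-GFP (edgeR adjusted p = 0.0211, held in 7 of 12 fits). With AAV-VEGFC it was at -0.67 ± 0.12 over BDL (edgeR adjusted p = 0.00491, held in all 12). Hp, haptoglobin, fell over BDL with AAV-GFP (-1.49 ± 0.33, edgeR adjusted p = 0.0205) and AAV-VEGFC (-1.37 ± 0.32, edgeR adjusted p = 0.0225). Both were lost when any 1 BDL library was left out, the first also without AAV-GFP 2 (edgeR adjusted p up to 0.0857 and 0.0693). Hmox1, the inducible enzyme that opens the haem ring, lay between 4.83 and 8.22 CPM and was not called by edgeR.

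Of the globins outside the set, those of other life stages were not detected. Hbe1, Hbe2, Hbg1 and Hbz, the embryonic and fetal chains, and Mb, myoglobin, had 0 counts in all 12 libraries. Hba2, a sparse alpha-globin row of at most 14 counts, rose over sham with AAV-GFP (3.03 ± 0.80, edgeR adjusted p = 0.0316) and AAV-VEGFC (3.34 ± 0.79, edgeR adjusted p = 0.016). The first call held in 5 of 12 fits (without BDL 2, BDL 3 or any 1 AAV-VEGFC library), and the second was lost without sham 1 or sham 2 (edgeR adjusted p up to 0.121 and 0.0667). Without sham 2, AAV-GFP 1 and AAV-VEGFC 1, neither Hba2 call held (edgeR adjusted p 0.0732 and 0.0520). Ngb, neuroglobin of neurons, and Cygb, cytoglobin of fibroblast-like cells, were not called by edgeR in the fit of all 12 libraries. For AAV-VEGFC against BDL, edgeR called 0 of the 3 tested rows Hba2, Ngb and Cygb in that fit. Without sham 2, AAV-GFP 1 and AAV-VEGFC 1 it called 2 of them. The same step moved the calls of all 149 tested list genes in this comparison from 16 to 36. The other lipoxygenase genes, with the lipoxygenase-activating protein gene Alox5ap among the 5 tested, gave 0 calls by edgeR in every comparison. At most 1 of the 5 was at an unadjusted p under 0.05 in any comparison. At most 1 was called by DESeq2 or by limma voom. Among 8 tested relatives of Slc4a1, edgeR called none higher in any comparison of the 12-library fit. Of these relatives, Slc4a11 fell over sham with AAV-GFP (-1.04 ± 0.30, edgeR adjusted p = 0.044) and AAV-VEGFC (-0.94 ± 0.30, edgeR adjusted p = 0.0492). These calls held in 3 fits (without AAV-GFP 1, AAV-VEGFC 1 or AAV-VEGFC 3) and in 1 of 12 fits (without AAV-VEGFC 3), with edgeR adjusted p up to 0.144 and 0.141. The second was lost without sham 2, AAV-GFP 1 and AAV-VEGFC 1 together (edgeR adjusted p 0.1003).

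Markers of other blood cells were read beside the members. Of 16 neutrophil genes found, 9 were tested. S100a8, a chain of the neutrophil protein calprotectin, was at 0, 0.183 and 0 CPM in sham and at 1.41, 2.42 and 1.47 CPM in BDL libraries, and S100a9 at 0.469, 0.122 and 0 against 1.91, 4.70 and 3.64 CPM. Over sham S100a8 rose in AAV-GFP (5.25 ± 0.86, edgeR adjusted p = 0.003) and AAV-VEGFC libraries (5.19 ± 0.86, edgeR adjusted p = 0.00269), and both calls held in all 12 fits. Mmp8, the neutrophil collagenase, had 0 counts in all sham libraries and 0.325, 0.914 and 1.10 CPM in BDL libraries. It was the 1 neutrophil gene that edgeR called between BDL and sham (edgeR adjusted p = 0.0153, lost without any 1 sham library, BDL 2 or BDL 3). The summed neutrophil level was 12.7 to 17.2 CPM in sham, 15.0 to 23.4 in BDL, 22.1 to 28.1 in AAV-GFP and 20.97 to 30.1 CPM in AAV-VEGFC libraries. The granule genes Mpo, Elane and Ltf were at 0 in every library.

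Platelet genes, which circulate with red cells, gave 0 calls of 4 tested by edgeR in every comparison (at most 1 at an unadjusted p under 0.05, by DESeq2 or by limma voom in any of them). Their summed level was 1.27 to 1.95 CPM in sham and 1.76 to 2.02 CPM in BDL libraries, with Ppbp at 0 throughout. Lymphocyte genes gave 0 calls of 5 tested by edgeR under the same limits, with sums of 8.32 to 10.4 CPM in sham and 8.08 to 15.2 CPM in BDL libraries. Of 8 tested monocyte genes, 4 rose over sham in each vector group, among them Lyz2 (1.39 ± 0.13, edgeR adjusted p = 7.58e-05, with AAV-GFP) and Cd14 (1.14 ± 0.24, edgeR adjusted p = 0.0118, with AAV-GFP, lost without sham 1 or AAV-GFP 3). Without sham 2, AAV-GFP 1 and AAV-VEGFC 1, 2 monocyte genes were called with AAV-VEGFC. The summed monocyte level was 126 to 135 CPM in sham and 133 to 201 CPM in BDL libraries. Of 19 tested endothelial genes, edgeR called 0 between BDL and sham (7 at an unadjusted p under 0.05, 1 by DESeq2 and 4 by limma voom), 12 rose with AAV-GFP and 13 with AAV-VEGFC over sham. Cldn5, the claudin of the blood-brain barrier, was 43.7, 48.1 and 47.3 CPM in sham, 53.6, 66.7 and 63.9 in BDL, 116, 109 and 121 in AAV-GFP and 158, 110.1 and 113 CPM in AAV-VEGFC libraries. The summed endothelial level was 419.6 to 478 CPM in sham, 461 to 623 in BDL, 708 to 773 in AAV-GFP and 749.5 to 815 CPM in AAV-VEGFC libraries. Every vector library lay above every BDL library in this sum, while the sums of BDL and sham libraries overlapped. The summed neutrophil and monocyte levels of BDL and sham libraries also overlapped, unlike the members. S100a8, S100a9 and Mmp8 were, like the members, higher in each BDL library than in each sham library. The part of these cells in the members' values was not tested. Choroid plexus genes, summed, reached 325.8 CPM in sham 2 against 8.19 CPM in the lowest sham library, and sham 2 was also the highest sham library for the 9 members. Without sham 2, AAV-GFP 1 and AAV-VEGFC 1, edgeR called the 9 members higher in each ligated group over sham, with medians of 2.62, 2.99 and 3.23. BDL and sham libraries chose the members, and each of these comparisons uses sham libraries, so these calls are a description only. In the fit of all 12 libraries, higher calls over sham made up 0.0934% (BDL), 3.95% (AAV-GFP) and 7.98% (AAV-VEGFC) of all genes. These shares are not those of the fit without the 3 libraries, which called more genes for BDL against sham.

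**Figure D4:**
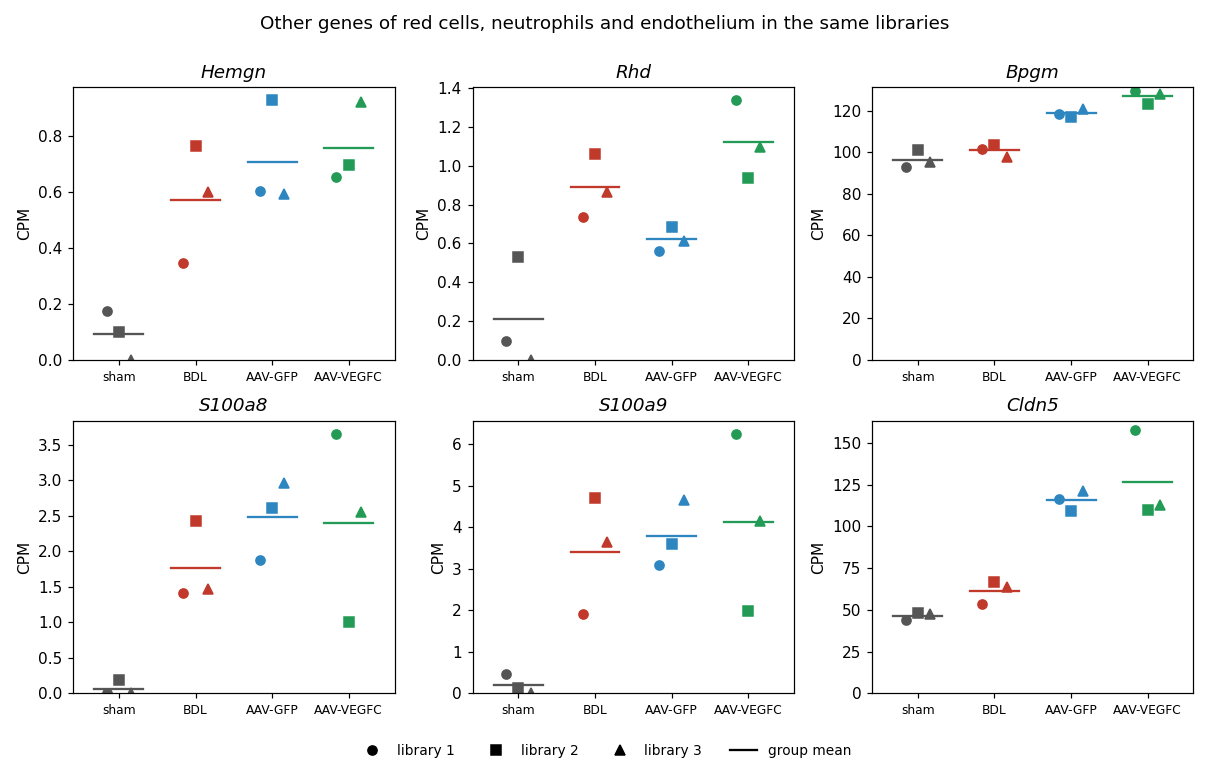
CPM after TMM scaling (axis from 0) of 3 further red-cell genes, 2 neutrophil genes and the endothelial gene Cldn5 in each of the 12 libraries, by group, with group means as lines. Hemgn, Rhd, S100a8 and S100a9 are near 0 in most sham libraries, while Bpgm and Cldn5 step up in the vector groups.

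The genes outside the set whose levels ran most like the members' were found by Pearson's r of log2 CPM with the members' mean over the 12 libraries, among 12026 genes. Adam15, a membrane protease, came first (r = 0.957), followed by S100a8 (0.953), Sh3glb2 (0.951), Rsad2 (0.949), an interferon-induced antiviral protein, and Net1 (0.949). Lgals5, a galectin of rat reticulocytes and red cells, had r = 0.944, and Lrg1, an acute-phase glycoprotein, 0.942. Jmjd8 and Slc38a5 were also among the first 10, with r of 0.941 and 0.934. Much of such an r is the gap between sham and ligated libraries, which any gene with that gap shares. With group means removed, r was 0.70 for Sh3glb2, 0.55 for Adam15, S100a8 and Lgals5, 0.11 for Lrg1 and -0.06 for Slc38a5. Lgals5 was at 0, 0.204 and 0.0956 CPM in sham, 0.455, 1.08 and 0.623 in BDL, 1.34, 1.06 and 1.58 in AAV-GFP and 1.84, 1.96 and 1.14 CPM in AAV-VEGFC libraries. Its 3 sham libraries lay below all 9 ligated libraries.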

How the data were processed

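The deposited file holds whole-number read counts per gene, not normalized, for 12 libraries of rat brain, and 11 single-library files repeat its columns. Per the labels' protocols, Trizol was used for RNA and a TruSeq RNA kit for libraries. Per the submitters' processing notes, the authors used FastQC, Trimmomatic 0.36, HISAT2 and featureCounts on rn6, and the sources used here give no settings, annotation or strandedness. Without strand, overlapping genes cannot be told apart. Columns left unused numbered 0.

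TMM factors and CPM were computed from the counts with edgeR 4.0.16 under R 4.3.3. Of all genes, 12850 passed filterByExpr, and edgeR fitted 4 group means to all 12 libraries (quasi-likelihood test, Benjamini-Hochberg over all genes, called under 0.05). SE came from the fold change and the F statistic, and 95% intervals are not adjusted for the number of genes. Alternatives were DESeq2 1.42.0, limma 3.58.1 voom with quality weights, DESeq2 size factors, 2 other filters, a replicate block, fits of only the groups compared, globin copies summed, leaving out each library, and leaving out 3 libraries that stood apart. The scripts were tested on simulated data. Libraries of a group differed beyond sampling noise (chi-square per degree of freedom 11.61 to 226.5). A count of 0 allows 3 counts, for counting error only. Figures were drawn with matplotlib 3.10.9.

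The members and gene lists were chosen with earlier results of these data known. Named were all 9 members, the list genes called in a comparison or highest in mean CPM (the text names part of these and a few more, such as Rhd, Klf1, Ahsp, Hmox1 and the genes at 0, after their values were seen), and the 10 genes of at least 0.5 CPM most like the members by Pearson's r of log2 CPM with a prior count of 2. Some genes named by these rules are not reported here.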

Additional observations from a re-analysis of the deposited data

How the results depend on the processing

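For the members the count of calls over sham stayed at 9 with AAV-GFP and with AAV-VEGFC under all alternatives, and AAV-VEGFC against AAV-GFP stayed at 0 under all. With the globin rows of a chain summed into 1 row, 5 of 5 were called in BDL, AAV-GFP and AAV-VEGFC against sham. Sham libraries took part in choosing the members, so these counts over sham are not independent of the choice. In BDL against sham, leaving out 1 library gave 8 to 9 (Hbb was lost without sham 1 or sham 3). AAV-GFP against BDL gave 0, but 6 by limma voom and 0 to 1 on leaving out 1 library (1 without BDL 2, Hba1). AAV-VEGFC against BDL gave 2, and by setting 6 with DESeq2, 3 with limma voom, 1 with the replicate block, and 0 with the compared groups alone, with globin rows summed, and without sham 2, AAV-GFP 1 and AAV-VEGFC 1 together. Leaving out 1 library gave 0 to 6 there. Of 149 tested list genes, edgeR called 16 for AAV-VEGFC against BDL, DESeq2 24 and limma voom 29. For AAV-GFP against BDL these counts were 11, 18 and 50. The cause of the changes between settings was not tested.

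Of 1098 refits of single members, 1048 kept their direction and side of the threshold, 22 lost a call, 19 gained one and 9 changed sign, all of them small differences of Slc4a1 or Alox15 that were not called. On leaving out 1 library, the log2 fold change of Slc4a1 ran from -0.0342 (without BDL 3) to 0.350 in AAV-GFP against BDL, from -0.113 (without BDL 3; also below 0 without AAV-VEGFC 2) to 0.268 in AAV-VEGFC against BDL, and from -0.209 to 0.0795 (without AAV-VEGFC 1) in AAV-VEGFC against AAV-GFP. That of Alox15 ran from -0.0141 (without BDL 3) to 0.511 in AAV-VEGFC against BDL and from -0.280 to 0.0571 (without AAV-VEGFC 3) in AAV-VEGFC against AAV-GFP. In this last comparison Slc4a1 became 0.0730 by limma voom and 0.0886 without the 3 libraries, and Alox15 0.0254 without the 3 libraries.

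Replicate numbers did not pair the libraries: over 18 same-numbered pairs, deviations from the group means correlated between -0.13 and 0.07, and 2 of 12 libraries correlated best with their own number. The replicate block kept the members' calls at 9, 9 and 9 over sham and at 0 for AAV-GFP against BDL and AAV-VEGFC against AAV-GFP. Counts of calls over all genes moved more than those of the members: for BDL against sham 14 became 103 with DESeq2, 347 with limma voom, 332 with the compared groups alone and 209 without the 3 libraries. They ran from 625 to 6103 for AAV-GFP and from 702 to 3471 for AAV-VEGFC over sham, from 386 to 4687 and from 330 to 3123 for these over BDL, and from 0 to 1193 for AAV-VEGFC against AAV-GFP.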
